A study of Mus musculus with 8 samples.

Results

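The signals by which bone-forming cells control osteoclasts, the cells that resorb bone, were examined in the response of mouse osteoblasts to parathyroid hormone (PTH) through 5 genes chosen by symbol: Tnfsf11, Tnfrsf11b, Csf1, Il34 and Lgr4. Each had 1 entry among the 47706 genes of the count table, in an assembled locus that carried no other symbol, and all 5 were among the 16736 genes that passed the filter on low counts and were tested. Polyadenylated RNA was sequenced from 8 samples of primary osteoblasts from the calvaria (skullcap) of newborn mice, 4 treated with PTH and 4 with vehicle for 24 hours on day 7 of differentiation. According to the methods, the hormone was its amino-terminal fragment, given to serum-starved cells after culture in osteogenic medium. The labels instead name adipogenic differentiation for all 8 samples, and the prefix Con in their titles is not explained. The labels give no strain, sex or genotype, and nothing says whether the 4 samples of a treatment came from separate isolations of cells, so p-values measure only the spread between these samples.

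Osteoclasts form from cells of the monocyte and macrophage lineage, which need the signals of 2 receptors. CSF1R, the receptor for macrophage colony-stimulating factor (CSF1) and for interleukin-34, keeps the precursors alive and dividing, and RANK, engaged by RANK ligand (RANKL), commits them to the osteoclast fate. Osteoprotegerin (OPG) is a soluble decoy receptor that captures RANKL, so the balance of RANKL and OPG made by osteoblasts and osteocytes is a long-known control point of bone resorption. LGR4 is a receptor for R-spondins that amplifies Wnt signaling, and it has also been described as a further receptor for RANKL. PTH raises RANKL through cyclic AMP, and much of that control of the mouse gene lies in enhancers far upstream of its promoter.

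Positions are those of GENCODE M21 on GRCm38, the assembly to which the authors aligned. Tnfsf11 lies on the minus strand of chromosome 14 from 78277445 to 78308043 and has 5 exons in its annotated transcript. Tnfrsf11b, which encodes OPG, lies on the minus strand of chromosome 15 from 54250619 to 54278484, and its transcript also has 5 exons. Csf1 is on the minus strand of chromosome 3 from 107741048 to 107760469, Il34 is on the minus strand of chromosome 8 from 110741829 to 110805924, and Lgr4 is on the plus strand of chromosome 2 from 109917647 to 110014257. Only Il34 overlaps other annotated genes, the antisense transcripts Gm15894 and Gm15895, which had at most 18 counts in any sample, where Il34 had at least 968. Whether counting used the strand is not given, so reads of these pairs may not be separable.

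RefSeq promoter sequences of build GRCm38.p6, from 250 bases before the start of transcription to 50 bases after it, were at hand for 3 of the genes, Tnfsf11, Csf1 and Lgr4. They were searched on both strands for the cyclic AMP response element (TGACGTCA), its shorter core (TGACG, which the full element contains) and the TATA box (TATAAA). The single match was a TATA box on the opposite strand of the Tnfsf11 promoter, from 32 to 27 bases before the start. Among 32851 promoters of the same length, 13.6% held this motif, 1.79% held the full response element and 20.8% held the core. The promoters of the 2 genes that rose with PTH are printed here 5′ to 3′ along each gene, at chr14:78307994-78308293 on the minus strand for Tnfsf11 and chr2:109917397-109917696 on the plus strand for Lgr4, with the matched letters in capitals.
Tnfsf11: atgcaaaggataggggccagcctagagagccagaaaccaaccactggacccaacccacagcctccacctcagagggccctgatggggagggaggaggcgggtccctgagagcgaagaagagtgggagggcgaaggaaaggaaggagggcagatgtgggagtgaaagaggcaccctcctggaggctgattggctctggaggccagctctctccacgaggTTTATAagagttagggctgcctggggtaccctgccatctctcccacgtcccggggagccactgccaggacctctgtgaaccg
Lgr4: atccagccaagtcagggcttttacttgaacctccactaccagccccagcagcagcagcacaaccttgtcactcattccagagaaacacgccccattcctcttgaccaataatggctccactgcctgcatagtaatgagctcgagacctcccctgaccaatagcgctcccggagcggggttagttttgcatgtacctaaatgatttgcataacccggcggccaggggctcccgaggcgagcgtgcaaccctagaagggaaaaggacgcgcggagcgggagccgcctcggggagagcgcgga
The Tnfsf11 window holds 7 CpG dinucleotides, equal to the median over all promoters, and the Lgr4 window holds 18. A match is a description of the letters, and the lack of one says nothing about factors that bind elsewhere.

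Tnfsf11, the gene for RANKL, was the member that changed most. With vehicle it had 1.63, 0.987, 1.25 and 1.79 CPM (counts scaled to a common library size by edgeR's TMM method) in samples 1 to 4, from 43 to 89 counts. With PTH it had 157, 117, 115 and 120 CPM. The highest vehicle sample was therefore far below the lowest PTH sample, and among the PTH samples replicate 1 lay above the other 3, which were close together. The log2 fold change was 6.48 (95% interval 6.11 to 6.86), a 89.6-fold increase (edgeR quasi-likelihood test, adjusted p = 4.28e-11), and 6.36 without PTH replicate 1. Of the 16736 genes tested, 28 had a larger log2 fold change. Per kilobase of transcript, Tnfsf11 stood at the 19.4th percentile of 16162 tested genes with a known transcript length in vehicle cultures and at the 92.7th in PTH cultures.

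Tnfrsf11b, the gene for the decoy receptor OPG, moved the opposite way. It had 35.2, 36.2, 34.5 and 39.7 CPM in vehicle samples 1 to 4 and 21.2, 18.0, 20.5 and 22.6 CPM in the PTH samples. Every PTH sample was below every vehicle sample. The log2 fold change was -0.82 (95% interval -1.01 to -0.64), and the level fell by 43.5% (adjusted p = 7.43e-06). Of all genes called, 67.1% had a smaller absolute log2 fold change than Tnfrsf11b.

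The ratio of Tnfsf11 to Tnfrsf11b counts, which does not depend on library size, was corrected for the transcript lengths of 2236 and 2818 bases. With vehicle it was 0.0582, 0.0343, 0.0458 and 0.0569, so that there were 17.2 to 29.1 OPG transcripts for each RANKL transcript. With PTH it was 9.37, 8.22, 7.09 and 6.72. The side of the balance that was in excess thus differed between the treatments in all 8 samples, and RANKL made up 3.32% to 5.50% of the pair with vehicle and 87.0% to 90.4% with PTH. The mean log2 ratio rose from -4.39 ± 0.35 to 2.96 ± 0.22 (SD, n = 4 each), a difference of 7.35 or a 163-fold change of the ratio. The exact permutation test gave a two-sided p = 0.0286, the lowest value available among 70 assignments of 4 and 4 samples. The larger part of this difference came from the numerator, with 6.48 for Tnfsf11 against -0.82 for Tnfrsf11b on the log2 scale.

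**Figure D1:**
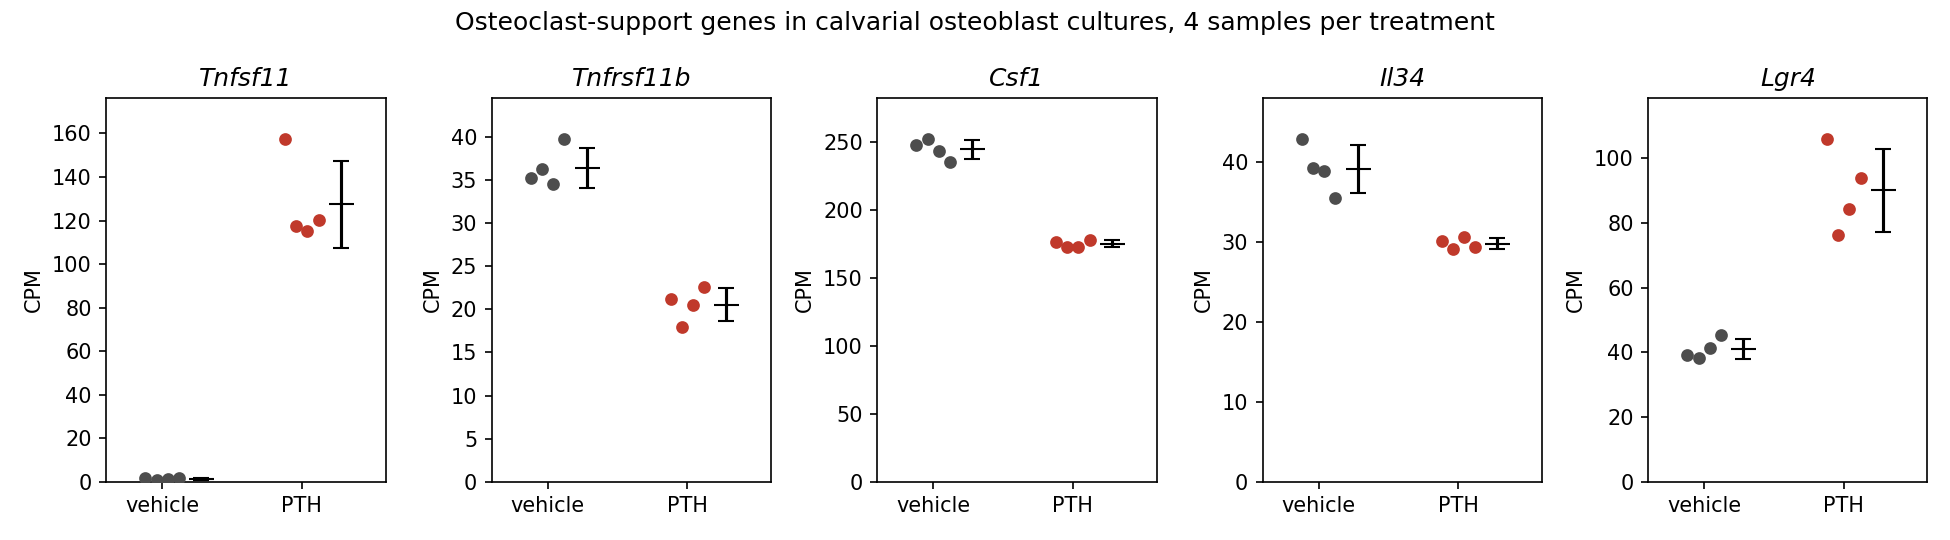
CPM of the 5 genes in each sample, with vehicle in grey, PTH in red, and the mean ± SD of 4 samples beside the points; each panel has its own axis from 0. Tnfsf11 lies between 0.987 and 1.79 CPM with vehicle and above 115 CPM with PTH, Lgr4 is higher with PTH, and Tnfrsf11b, Csf1 and Il34 are lower in every PTH sample.

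**Figure D2:**
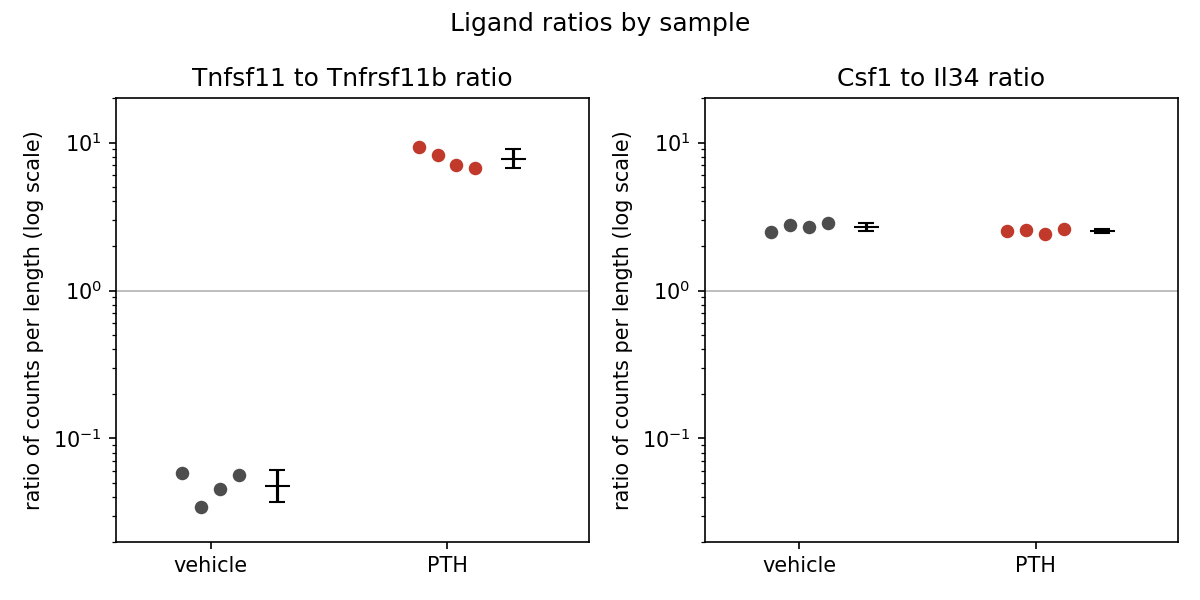
Tnfsf11 to Tnfrsf11b ratio (left) and Csf1 to Il34 ratio (right) per sample, from counts divided by transcript length, on a log axis; bars show the geometric mean ± 1 SD of the log2 values, and the grey line marks equal levels. The first ratio lies below 1 in all vehicle samples and above 1 in all PTH samples, and the second stays between 2.42 and 2.85 in all 8.

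Both CSF1R ligands were lower with PTH. Csf1, which encodes macrophage colony-stimulating factor, had 248, 252, 244 and 236 CPM with vehicle and 176, 173, 173 and 178 CPM with PTH. Its samples varied little within each treatment, by an SD of 2.90% of the mean with vehicle and 1.47% with PTH. The log2 fold change was -0.48 (95% interval -0.61 to -0.36, adjusted p = 2.59e-05), and the level fell by 28.5%. Il34, which encodes interleukin-34, had 42.9, 39.2, 38.9 and 35.5 CPM with vehicle and 30.1, 29.1, 30.7 and 29.3 CPM with PTH. The change in log2 was -0.39 (95% interval -0.55 to -0.24, adjusted p = 7.89e-04), and the level fell by 23.8%. For neither gene did the treatments overlap.

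Summed per length, Csf1 and Il34 gave 80.4 ± 3.13 CPM per kilobase with vehicle and 58.5 ± 0.625 with PTH, so the pool of CSF1R ligand transcripts fell by 27.2% (exact permutation test, two-sided p = 0.0286; a sum chosen after the values were seen). Csf1 supplied 71.3% to 74.0% of that pool with vehicle and 70.8% to 72.3% with PTH. The log2 ratio of Csf1 to Il34 was 1.43 ± 0.09 with vehicle and 1.34 ± 0.05 with PTH, and its difference of -0.09 was about as large as the SD between vehicle samples (exact permutation test, two-sided p = 0.114). Without vehicle replicate 1 the difference was -0.13 and the exact p was 0.0286. CSF1R ligand transcripts thus fell in these cultures while those of RANKL rose.

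Lgr4 was the second member to rise. It had 39.2, 38.3, 41.3 and 45.3 CPM in the vehicle samples and 106, 76.1, 84.2 and 93.8 CPM in the PTH samples. The PTH samples were more spread (SD 14.2% of the mean, against 7.60% with vehicle), with replicate 1 highest as for Tnfsf11, but none came near the vehicle samples. The log2 fold change was 1.13 (95% interval 0.92 to 1.35, adjusted p = 1.95e-06), a 2.20-fold increase, and 1.04 without PTH replicate 1. Of its relatives and their ligands that were tested, Lgr5, Rspo2 and Rspo3 were lower, while Lgr6 and Rspo1 were not called (log2 fold changes of 0.27 and 0.34). Lgr5, a related R-spondin receptor, had 202 to 258 CPM with vehicle and 147 to 186 CPM with PTH (log2 fold change -0.52, adjusted p = 6.84e-04). Rspo3 had 164 to 187 CPM with vehicle and 76.1 to 84.3 CPM with PTH (log2 fold change -1.13, adjusted p = 6.23e-08). Rspo2 had 125 to 155 CPM with vehicle and 66.5 to 83.9 CPM with PTH (log2 fold change -0.96, adjusted p = 4.96e-06). These are the R-spondin genes with most transcripts here, and for neither did the treatments overlap.

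Per kilobase, Lgr4, Lgr5 and Lgr6 together gave 58.2 ± 4.83 CPM with vehicle and 52.8 ± 5.41 with PTH, with overlapping samples (p = 0.171 by a two-sided exact permutation test). Within that sum the share of Lgr4 was 13.2%, 12.5%, 13.1% and 17.5% in the vehicle samples and 36.9%, 32.8%, 32.5% and 32.2% in the PTH samples (exact permutation test, two-sided p = 0.0286). Vehicle replicate 4 and PTH replicate 1 had the highest share in their groups. The sum over the 4 R-spondin genes was 104 ± 6.73 CPM per kilobase with vehicle and 53.3 ± 3.48 with PTH, lower in every PTH sample (exact permutation test, two-sided p = 0.0286). These 3 quantities were chosen after the values were seen.

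**Figure D3:**
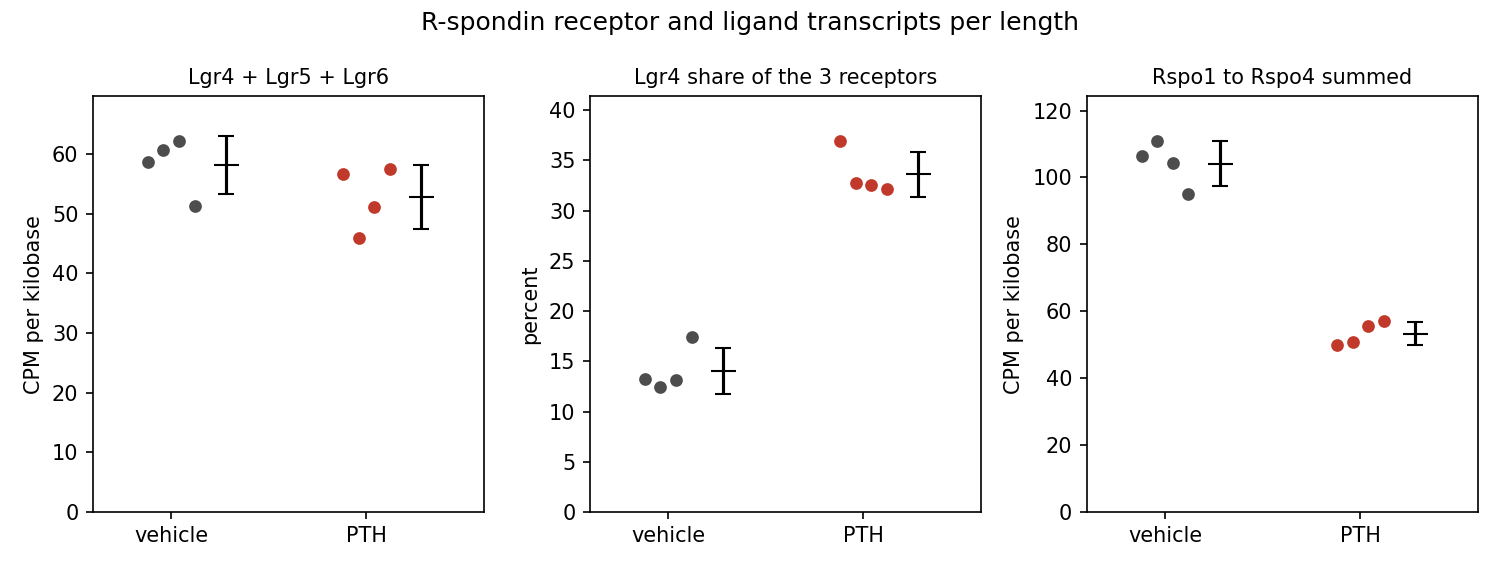
Summed CPM per kilobase of Lgr4, Lgr5 and Lgr6 (left), the percentage of that sum contributed by Lgr4 (middle) and the summed CPM per kilobase of Rspo1 to Rspo4 (right) in each sample, with mean ± SD of 4. The summed receptors overlap between treatments, the Lgr4 share is 12.5% to 17.5% with vehicle and 32.2% to 36.9% with PTH, and the R-spondin sum is lower in all PTH samples.

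All 5 genes were called at an adjusted p under 0.05, 2 higher and 3 lower with PTH, where 45.8% of all genes tested were called, 23.3% higher and 22.5% lower. The treatments did not overlap for any of the 5, which was also so for 43.0% of all genes tested. For each of the 5, the exact permutation test on log2(CPM + 0.1) gave the smallest p it can, 0.0286. The median log2 fold change was -0.39 over the 5 genes and -8.14e-04 over all genes tested.

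The order of the transcripts per kilobase differed between treatments. With vehicle, Csf1 was highest at 58.6 ± 1.70 CPM per kilobase, followed by Il34 at 21.8 ± 1.68, Tnfrsf11b at 12.9 ± 0.822, Lgr4 at 8.10 ± 0.616 and Tnfsf11 at 0.633 ± 0.163. No neighbours in that order overlapped. With PTH, Tnfsf11 came first at 57.0 ± 8.95, ahead of Csf1 at 41.9 ± 0.616, Lgr4 at 17.8 ± 2.53, Il34 at 16.6 ± 0.396 and Tnfrsf11b at 7.29 ± 0.679. The Il34 samples, between 16.2 and 17.1, lay within the range of the Lgr4 samples, so these neighbours did not differ beyond their spread. OPG, more abundant than LGR4 with vehicle, had the fewest transcripts per length of the 5 genes with PTH.

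The receptors, other ligands and processing enzymes of the 5 proteins were followed through a list of 18 genes. Of these 16 were tested, 2 were called higher and 7 lower, with a median log2 fold change of -0.13. Of all genes tested, 23.3% were called higher and 22.5% lower. Tnfrsf11a, which encodes RANK, had 2.38 to 5.12 CPM with vehicle and 3.59 to 5.14 with PTH, overlapping ranges (log2 fold change 0.38, 95% interval -0.12 to 0.87, adjusted p = 0.198). Csf1r, the receptor of both CSF1 and interleukin-34, had 53.5 to 95.7 CPM with vehicle and 63.9 to 87.1 with PTH (log2 fold change 0.19, 95% interval -0.16 to 0.55, adjusted p = 0.352). Both receptors depended on vehicle replicate 4, which had their highest vehicle values. Without it, the log2 fold change was 0.62 for Tnfrsf11a (adjusted p = 0.0256) and 0.39 for Csf1r (adjusted p = 0.0209), and 4 genes of the list were called higher. Vehicle replicate 4 was also the highest vehicle sample in every macrophage marker measured, such as Adgre1 (93.3 CPM against 50.6 to 72.0 in the others). That was not particular to macrophage markers. The same sample was the highest vehicle sample in every osteoblast marker measured, such as Bglap (370 CPM against 188 to 240 in the others). For Traf6, the adaptor that carries the RANK signal, the log2 difference was 0.10 (adjusted p = 0.307).

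Tnfsf10, which encodes TRAIL, another ligand of OPG, rose by 2.48 on the log2 scale (adjusted p = 0.00681), from 0.187 ± 0.166 CPM to 1.08 ± 0.274, on at most 20 counts in any vehicle sample. The list held 3 proteases described as able to release RANKL from the cell surface, and none of these 3 was called higher. Mmp14 changed by -0.04 on the log2 scale (95% interval -0.27 to 0.19, adjusted p = 0.804) and Adam10 by -0.22 (adjusted p = 0.0579), while Adam17 was lower by the test (-0.30, adjusted p = 0.0133) with overlapping samples. Of the other proteins that bind interleukin-34, the proteoglycan gene Sdc1 was higher (log2 fold change 0.45, adjusted p = 0.00613) and the phosphatase gene Ptprz1 was lower (-0.56, adjusted p = 0.0293), the latter with overlapping samples. Znrf3 and Rnf43 encode the ubiquitin ligases that R-spondins and LGR receptors hold in check, and both were lower, with log2 fold changes of -0.53 (adjusted p = 0.00433) and -0.96 (adjusted p = 0.0343). Rnf43 had at most 74 counts in any vehicle sample. Rspo1 (0.34, adjusted p = 0.0726) and Lgr6 (0.27, adjusted p = 0.575) were not called. Without PTH replicate 3 the calls of Adam17 (adjusted p = 0.0520), Ptprz1 (0.0925) and Rnf43 (0.0696) were lost, which left 4 genes lower. That of Ptprz1 was also lost without vehicle replicate 3 or 4 or PTH replicate 2 (adjusted p up to 0.102), and that of Rnf43 without vehicle replicate 2, 3 or 4 or PTH replicate 1 (up to 0.0973). Adam10 was called lower without PTH replicate 1 (-0.29, adjusted p = 0.00862) and Rspo1 higher without vehicle replicate 1 (0.47, adjusted p = 0.0140).

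**Figure D4:**
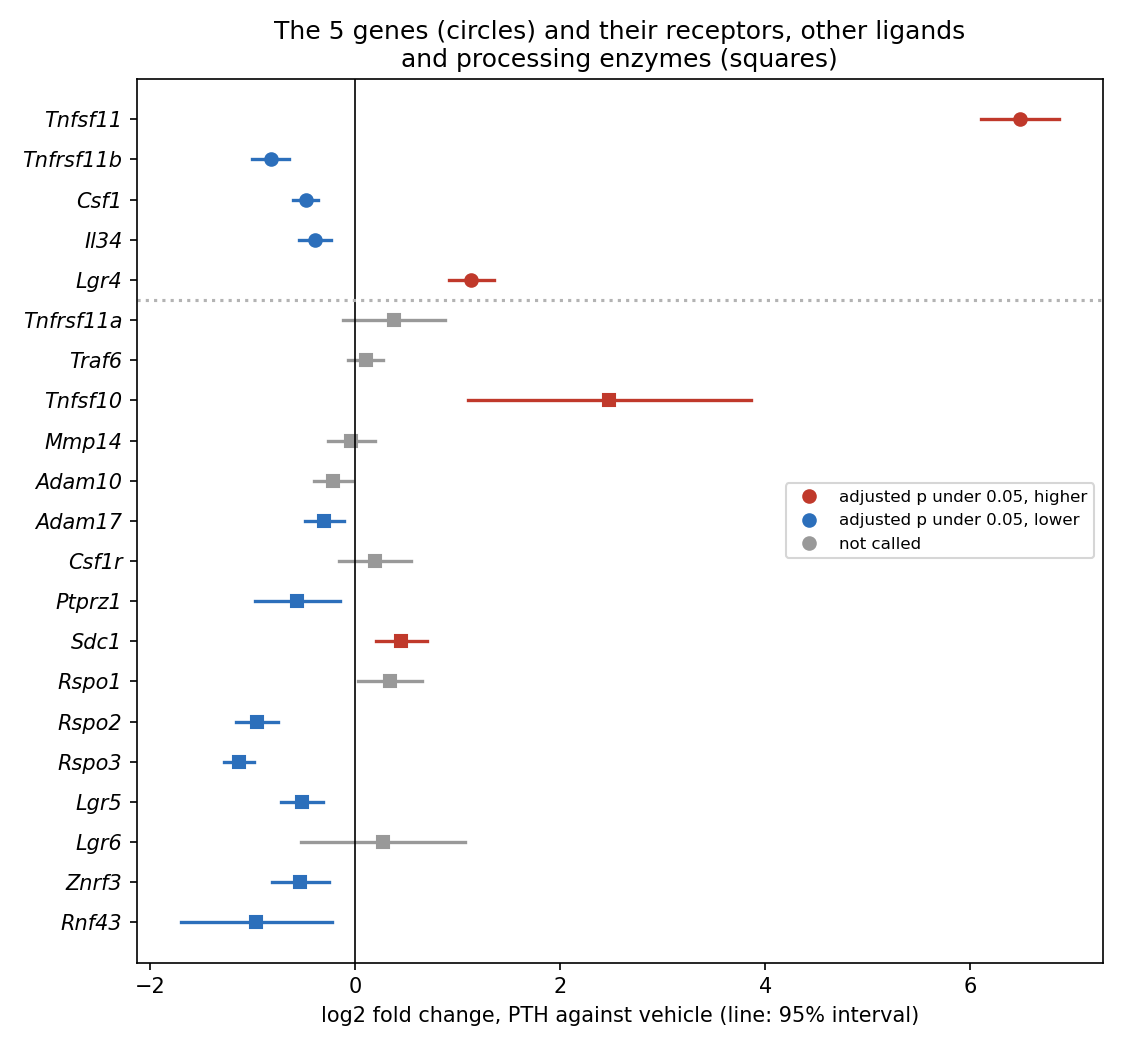
Log2 fold change of PTH against vehicle for the 5 genes (circles) and the 16 tested genes of the list of receptors, other ligands and processing enzymes (squares), with 95% intervals from edgeR; red marks called higher, blue called lower, grey not called. Tnfsf11 stands apart at 6.48, Rspo2, Rspo3, Lgr5 and Znrf3 lie left of 0, and the intervals of Tnfrsf11a, Csf1r and Mmp14 span 0.

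Other secreted factors known to favour osteoclast formation formed a list of 20 genes. Of these 16 were tested, 8 were called higher and 2, Il7 and Wnt5a, lower, and the median log2 fold change was 0.91. For this list and the next, the shares over all genes tested were 23.3% higher and 22.5% lower. Il6, which encodes interleukin-6, had 0, 2, 4 and 4 counts in the vehicle samples and 197 to 269 CPM in the PTH samples, so its fold change rests on almost no vehicle counts. Lif, an interleukin-6 family cytokine, went from 2.92 ± 0.315 CPM up to 59.4 ± 4.07, by 4.35 on the log2 scale (adjusted p = 1.23e-11). The chemokine genes Ccl7 and Ccl2, whose products attract monocytes, had log2 fold changes of 4.21 (adjusted p = 5.58e-11) and 2.35 (adjusted p = 3.18e-06). Vegfa (1.96, adjusted p = 1.63e-06) and Fgf2 (1.38, adjusted p = 4.78e-09), which encode growth factors, were higher as well. Factors known to restrain osteoclast formation formed a list of 12 genes, of which 8 were tested, 3 were called higher and 1 lower, with a median log2 fold change of 0.18. Wnt4 was among those higher, with 0.508 ± 0.127 CPM with vehicle and 33.9 ± 6.56 with PTH. The other two higher calls, chosen for mention after their values were seen, were small, Efnb2 at 0.36 and Slit3 at 0.21 on the log2 scale, and that of Slit3 was lost without the filter on low counts and when any of vehicle replicates 1, 2 and 4 or PTH replicates 2 and 3 was left out. The 1 lower call was Sfrp1, a gene for a secreted Wnt antagonist that falls outside the naming rule, at -0.19 on the log2 scale (adjusted p = 0.0458). It was lost under 3 other settings and when any of vehicle replicates 1 to 3 or PTH replicates 2 to 4 was left out (adjusted p up to 0.141).

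Transcription factors and co-activators known to act on the genes for RANKL or OPG formed a list of 20 genes, all tested. Of these 9 were called higher and 8 lower, with a median log2 fold change of 0.09, where 23.3% of all genes tested were called higher and 22.5% lower. Vdr, the vitamin D receptor gene, had 17.9, 21.2, 25.0 and 32.8 CPM with vehicle and 1347, 1108, 1088 and 1167 CPM with PTH (log2 fold change 5.60, adjusted p = 2.71e-10). This was the largest change in the list. Crem, which encodes cyclic AMP responsive factors, and Fos, an AP-1 subunit, had log2 fold changes of 4.86 (adjusted p = 8.60e-11) and 4.58 (adjusted p = 1.09e-11). Nr4a1 (4.33, adjusted p = 1.19e-11), an orphan nuclear receptor, and Cebpb (3.33, adjusted p = 2.83e-11) rose too. Creb1 and the co-activator genes Crtc1, Crtc2 and Crtc3 were not called higher, whereas Atf4 of the same list was (0.49, adjusted p = 5.92e-05). These genes are mentioned outside the naming rule, after their values were seen. Creb1 (-0.28, adjusted p = 0.00504), Crtc1 (-0.64, adjusted p = 1.29e-04) and Crtc3 (-0.52, adjusted p = 5.09e-05) were lower. Crtc2 was not called (0.23, adjusted p = 0.0805). Of the factors that act with beta-catenin, Lef1 was higher by 2.91 on the log2 scale (1.37 ± 0.193 against 10.3 ± 2.22 CPM, adjusted p = 1.15e-07) and Tcf7 was lower by the same measure, at -2.07 (38.4 ± 11.4 against 9.09 ± 1.99 CPM, adjusted p = 6.41e-06).

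**Figure D5:**
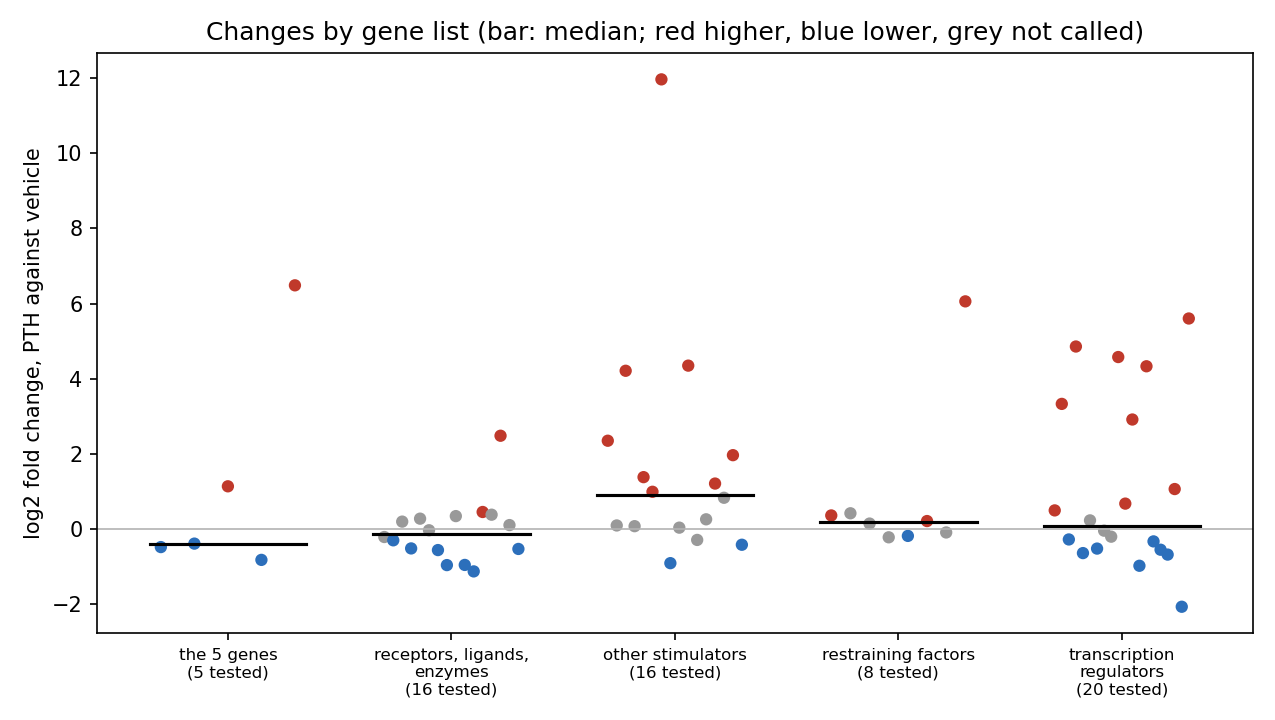
Log2 fold changes of all tested genes in the 5 genes and the 4 lists around them; each point is 1 gene, red called higher, blue called lower, grey not called, and bars are medians. The stimulating factors have the highest median, 0.91, and the points above 4 include Tnfsf11, Lif, Ccl7, Wnt4, Vdr, Crem, Fos and Nr4a1.

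Transcripts that mark other cell types were also measured. Their calls stand beside 23.3% of all genes tested called higher and 22.5% called lower. Osteoblast markers had the highest median of the marker lists, 210 to 384 CPM per sample over 7 genes. Such medians were 67.9 to 87.4 CPM over 3 chondrocyte markers, 33.2 to 57.8 CPM over 12 macrophage markers and 3.89 to 6.32 CPM over 6 adipocyte markers. Of the 7 osteoblast markers none was called higher and 2 were called lower, both genes for transcription factors of the lineage. Sp7 had 74.8 to 142 CPM with vehicle and 25.9 to 33.9 with PTH (log2 fold change -1.78, adjusted p = 4.45e-06), and Runx2 had 111 to 123 against 82.8 to 102 (-0.33, adjusted p = 0.00362). Of 5 adipocyte markers tested, 1 was called lower, Pparg, with 14.7 to 17.9 CPM with vehicle and 4.96 to 6.32 with PTH (-1.50, adjusted p = 3.66e-07). All 12 macrophage markers were detected. Their summed level, most of it Lyz2, was 1115 to 1815 CPM with vehicle and 1740 to 2228 with PTH, and 3 of the 12 (Lyz2, Tyrobp and Cd14) were called higher and none lower. In bulk RNA a change in the number of cells of a type and in the RNA of each cell cannot be told apart, and the part of these cells in the values of Csf1r and Tnfrsf11a was not tested. Of 10 osteoclast markers 8 were tested and 1, Nfatc1, was called higher, with a summed level of 504 to 610 CPM with vehicle and 537 to 746 with PTH. Most of that sum was Ctsk (393 to 491 CPM with vehicle and 384 to 554 with PTH), while Ocstamp and Oscar had at most 0.722 CPM in any sample. The fusion gene Dcstamp had no count in any sample, and Calcr, the calcitonin receptor gene, had at most 3 counts in a sample. T and B lymphocytes also make RANKL, but the T cell genes Cd3d and Cd3e had no count in any sample, and 6 lymphocyte markers together reached at most 0.475 CPM. Osteocytes, a main source of RANKL in bone, were represented by 5 markers, with a sum of 46.2 to 84.3 CPM with vehicle and 28.6 to 49.6 with PTH. Sost had no count in any sample, Dmp1 was lower with PTH (log2 fold change -1.12), and Fgf23 had no vehicle count and 1.02 to 1.68 CPM with PTH. Endothelial markers summed to at most 3.13 CPM, with Emcn at 0 throughout, and 3 chondrocyte markers summed to 302 to 313 CPM with vehicle and 354 to 469 with PTH. Of 3 endothelial markers tested 1, Kdr, was called higher (1.51, adjusted p = 0.0107), with overlapping samples. Of the 3 chondrocyte markers 2 were called higher, Col2a1 (0.44, adjusted p = 0.00140) and Acan (1.03, adjusted p = 6.45e-05). None of either list was called lower. The part of these marker changes, those of the osteoblast markers included, in the values of the 5 genes was not tested. Total counts were 33605610 to 56090654 per sample, and PTH replicate 1, the sample highest in Tnfsf11 and Lgr4, was also the deepest.

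The genes most like each member were sought among 14067 candidates that averaged 1 CPM or more, as those with the smallest root mean square difference over the 8 samples between log2(CPM + 0.1) profiles, each relative to its vehicle mean. For Tnfsf11, Gem was closest (difference 0.33), with 4.03 ± 0.903 CPM with vehicle and 317 ± 25.3 with PTH, followed by Kcnk10 (0.39) and Epn3 (0.45), and these were the only genes within 0.5. Kcnk10 had no vehicle count, so its place depends on the added 0.1. For Lgr4, Elovl6 (0.06) and Snx18 (0.07) were closest, among 1641 genes within 0.5. Tnfrsf11b was most like Dpysl2 (0.05), Smc6 (0.06) and Mrpl45 (0.07). Csf1 was most like Zmym4 (0.03), Rbbp9 (0.04) and Epha2 (0.04), and Il34 was most like Wdr34, Eva1b and Cpt1a (0.05 each). Within 0.5 lay 4821 genes for Tnfrsf11b, 8879 for Csf1 and 9535 for Il34, against 3 for Tnfsf11. These counts depend on the size of each change. For Csf1 and Il34, whose changes were small, the limit of 0.5 also takes in genes that did not change.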

How the data were processed

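RNA sequencing counts of 4 PTH and 4 vehicle samples were analysed. The authors prepared libraries by poly(A) selection, used HISAT2 to align paired reads to GRCm38 and StringTie2 for assembly, and deposited counts per gene from the assembler's Python script, which derives them from transcript coverage. Versions, annotation release, strand setting and the read length given to that script are not given in the sources used here. A wrong read length would scale all counts of a library alike, and counts halved were tried. PTH and vehicle were compared with edgeR 4.0.16 in R 4.3.3 (filterByExpr with a minimum count of 10 and total of 15, TMM, two-sided quasi-likelihood F-test), with Benjamini-Hochberg adjustment over 16736 genes and a threshold of 0.05, the study's own. The study used DESeq2, here an alternative (version 1.42.0). Adjusted p-values in the text are edgeR's. CPM values use TMM library sizes and are means ± SD of 4 samples. Levels per length use the longest GENCODE M21 transcript of each gene. Ratios were compared by exact permutation tests over 70 assignments.

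Total counts were 33605610 to 56090654 per sample, the precision of low genes is set by counting, and intervals cover the spread between samples. On simulated counts for 16736 genes, edgeR recovered 181 of 200 changed genes with 9 false calls, and DESeq2 177 with 22. The simulation gave all genes the same variability and changed far fewer of them than were called here, so its rates need not hold for these data. The members and gene lists were chosen with earlier results of these data known. The rule for named genes took the members, every tested gene of the list of partners, the called genes with an absolute log2 fold change of at least 1 in the other lists (at most 6 per direction) and the 3 genes most like each member, of which 1 is not reported here. Alternatives were DESeq2, its size factors in edgeR, no filter, the sample number as a block, each sample left out, counts summed by symbol and counts halved. Further steps used Python 3.11.15 (pandas 2.3.3, NumPy 2.4.6, SciPy 1.17.1, matplotlib 3.10.9). The mouse and stromal cell experiments were not analysed here.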

Additional observations from a re-analysis of the deposited data

Results flagged for a closer look

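Sets of 4 samples were searched for a single value far from the other 3 (a gap, relative to the whole range, above Dixon's 95% critical value). Of 104 sets, over the genes named by rule and both ratios, 6 were marked, and chance marks about 1 in 20. PTH replicate 1 had 157 CPM of Tnfsf11 where the other PTH samples had 115 to 120. Vehicle replicate 1 had 11.5 CPM of Znrf3 against 12.2 to 12.3 in the others. PTH replicate 3 had 85.0 CPM of Epn3 against 97.3 to 99.0. Vehicle replicate 4 had 30.9 CPM of Rbbp9 against 33.9 to 34.5. Vehicle replicate 1 had 13.3 CPM of Wdr34 against 11.8 to 11.9, and 91.7 CPM of Snx18 against 99.4 to 100.5. None of these values reached the range of the other treatment.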

How the results depend on the processing

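Of 234 values recomputed under alternatives, 220 were marked as kept. Counts of called genes were marked so when they stayed near the count of the main fit, even where single calls changed. Fold changes, and ratios with a test, were marked so when they kept their direction and side of the threshold. For the 5 genes all did: over all alternatives the log2 fold change lay between 6.34 and 6.62 for Tnfsf11, -0.87 and -0.76 for Tnfrsf11b, -0.52 and -0.47 for Csf1, -0.44 and -0.35 for Il34, and 1.04 and 1.22 for Lgr4, with adjusted p of at most 0.00397 (edgeR or DESeq2). The sample numbers gave correlations between -0.04 and 0.03 across genes for same-numbered samples, and between -0.07 and 0.06 for samples of different numbers. Correlations over all genes cannot show whether samples of the same number shared a batch that acts on few genes. With the number as a replicate block the log2 fold change was 6.49 for Tnfsf11, 3571 genes were higher and 3432 lower, and of the restraining factors 2 were higher, since Slit3 was lost (adjusted p = 0.0621), and 0 lower. The lower count was also 0 with DESeq2 size factors in edgeR and with counts halved, where the call of Sfrp1 was lost, and it lay between 0 and 2 when samples were left out. The paired ratio of Tnfsf11 to Tnfrsf11b kept its difference of 7.35, but 16 sign flips cannot give a p below 0.125. Leaving out samples gave 2 to 4 partner genes higher and 4 to 7 lower, and a Csf1 to Il34 difference between -0.1338 and -0.0672, with p = 0.0286 (exact permutation test) for the former, without vehicle replicate 1. The depth limits genes with few counts such as Tnfsf10, Rnf43 and Il6 with vehicle.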

Other observations

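Some genes of the lists fell outside the naming rule and were chosen after their values were seen. Il7, a cytokine gene of the stimulating list, was lower with PTH, 4.86 ± 0.586 against 9.16 ± 1.27 CPM (edgeR, log2 fold change -0.91, adjusted p = 2.04e-04), and Wnt5a had a log2 fold change of -0.42 (adjusted p = 0.00250), while 8 genes of that list rose. Tnf, mostly a macrophage product, had a log2 fold change of 1.21 (adjusted p = 0.00622), on 55 to 151 counts with vehicle, and the part of macrophages, of whose 12 markers 3 were called higher and 9 were not called, was not tested. Ndp, which encodes norrin, a ligand of LGR4, was not tested and had 16, 4, 2 and 8 counts in the vehicle samples and 0 in every PTH sample, where a count of 0 allows up to 3. Nr3c1, the glucocorticoid receptor gene, was lower with PTH, 94.8 ± 3.07 against 187 ± 7.43 CPM (-0.98 on the log2 scale, adjusted p = 7.04e-08). Rxra and Rxrb, which encode retinoid X receptors that pair with the vitamin D receptor, were lower, Rxra at -0.55 (adjusted p = 1.54e-05) and Rxrb at -0.68 (adjusted p = 6.78e-06), where Vdr was higher.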
